A study of Mus musculus with 6 samples.

Results

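Angiotensin peptides are made and destroyed by a set of enzymes, and 9 of their genes were followed here in cells of the mouse aortic root and ascending aorta: the precursor Agt, the converting enzyme Ace, the receptors Agtr1a, Agtr1b and Agtr2, and the membrane peptidases Enpep, Anpep, Lnpep and Mme. The members were taken by their symbols from the 31053 mouse genes of the deposited count table, and all 9 symbols were found. The cells came from 6 female mice on a 129 background at 16 weeks of age. By the labels, 4 were controls (CTL) and 2 carried the Loeys-Dietz syndrome mutation (LDS, genotype Tgfbr1M318R/+), a heterozygous missense change in a TGF-beta receptor that is present in every cell. Of the controls, 2 were plain Tgfbr1+/+ mice and 2 were CNC-traced, with the genotype Tgfbr1+/+; Wnt2CRE; EGFP-L10a, in which a Cre driven by a Wnt2 promoter switches on a green fluorescent tracer in cells of cardiac neural crest origin. Live nucleated cells were sorted before capture, so the shares of cell types are shares of what the digestion and the sort released.

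Angiotensinogen, the product of Agt, is cut by renin and then by angiotensin-converting enzyme (Ace) to angiotensin II, which contracts smooth muscle and promotes matrix production through type 1 receptors (Agtr1a and, in rodents, Agtr1b). The type 2 receptor (Agtr2) is best known from fetal tissue and often opposes the type 1 receptor. Aminopeptidase A (Enpep) shortens angiotensin II to angiotensin III, aminopeptidase N (Anpep) shortens it further to angiotensin IV, the insulin-regulated aminopeptidase (Lnpep) binds angiotensin IV, and neprilysin (Mme) cuts angiotensin I and natriuretic peptides.

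The 6 libraries are told apart by a barcode suffix (1 to 6) that the labels do not pair with a mouse. No library was therefore given a genotype, CTL and LDS were not compared, and no p-value was computed. Values are given per library or as the range over the 6 libraries, and a direction is called where it was the same in all 6. The tracer transcript GFP had 157 to 263 UMIs (unique molecular identifiers, each marking 1 captured RNA molecule) in libraries 1 to 4 and 6 to 8 in libraries 5 and 6, while the labels name the tracer in 2 mice. Of 30716 barcodes, 24972 passed the filter, with 18218282 to 38105145 UMIs per library, and 152 of these cells had 1 of 76 barcode sequences that were found in 2 or more libraries. Clusters gave 10375 VSMC-like cells (vascular smooth muscle), 13411 fibroblast-like, 568 endothelial-like, 442 leukocyte-like, 55 glia-like and 17 cardiomyocyte-like cells, and 104 cells led by Ngp, Camp and Cd3e stayed unnamed. All 7 VSMC markers summed to 60852 to 67247 CPM (UMIs of a gene per 1000000 UMIs of the group) in VSMC-like cells against 1297 to 5526 in fibroblast-like cells, and all 7 fibroblast markers to 23260 to 26743 CPM in fibroblast-like cells against 773 to 2371 in VSMC-like cells.

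VSMC-like cells were split again without using any member. The subcluster with higher Notch3 and lower Tes and Ptprz1, transcripts that the study uses as markers of the aortic root and the ascending aorta, was called VSMC2-like (1658 cells), the other VSMC1-like (8481 cells), and 236 cells with high Rgs5 stayed outside both. VSMC2-like cells made up between 10.4% and 21.2% of the VSMC-like cells of a library. A finer cluster of 492 VSMC-like cells, number 8 of 0 to 10, held fibroblast transcripts, with Dcn (decorin) at 3745 CPM against 201 CPM in all other VSMC-like cells, and 48.4% of its cells were among the 5% with the highest doublet scores. Of its cells, 66.5% were VSMC2-like, so results on VSMC2-like cells are given with and without it.

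Enpep was the member that set the VSMC subtypes apart most clearly, and the GATA factor Gata4 was higher in the same VSMC2-like cells. Gata4 was also higher in fibroblast-like than in VSMC-like cells in all 6 libraries, with medians of 28.4 and 14.4 CPM. The bases before the start site of Enpep are shown together with those of Anpep, the sister aminopeptidase that was found mainly in fibroblast-like cells. The 250 bases come from RefSeq (GRCm38.p6), at chr3:129332750-129332999 for Enpep and chr7:79848211-79848460 for Anpep, both on the minus strand (the Anpep window lies inside the span that the files' GENCODE annotation gives the gene, which includes a start further upstream) and written 5′ to 3′, with GATAA in capitals.
Enpep: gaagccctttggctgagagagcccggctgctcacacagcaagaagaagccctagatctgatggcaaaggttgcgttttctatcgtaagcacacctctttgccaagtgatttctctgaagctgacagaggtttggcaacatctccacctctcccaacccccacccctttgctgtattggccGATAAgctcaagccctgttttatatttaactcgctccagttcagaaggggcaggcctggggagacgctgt
Anpep: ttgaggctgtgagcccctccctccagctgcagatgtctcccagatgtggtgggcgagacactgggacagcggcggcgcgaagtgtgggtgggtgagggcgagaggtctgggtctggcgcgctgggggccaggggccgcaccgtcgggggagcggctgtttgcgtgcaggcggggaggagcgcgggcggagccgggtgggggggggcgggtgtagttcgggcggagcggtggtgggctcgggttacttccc
The letters GATAA, which contain the GATA core, or TTATC on the other strand, occurred once in the Enpep window, with their first base 70 bases before the start, and not in that of Anpep. Other forms of the GATA site were not searched. Over the 11 windows of 300 bases found for 8 members, 1 held the motif, and 25.4% of all 32851 such windows did. No window was found for Agtr1a, so its promoter, which Gata4 binds in heart tissue by earlier work that the study cites, was not searched. A match describes the letters only and does not show that a factor binds there. Positions given below are on mm10, from the GENCODE M21 annotation, and 1 other annotated gene overlaps each of Ace, Agtr1a, Enpep, Anpep and Lnpep, on the same strand for Agtr1a, Anpep and Lnpep.

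Most members were higher in fibroblast-like than in VSMC-like cells. Between fibroblast-like and VSMC-like cells, 6 of the 9 members (Agt, Ace, Agtr1b, Agtr2, Anpep and Mme) were higher in fibroblast-like cells in all 6 libraries and 1 (Lnpep) was lower, while Agtr1a and Enpep went in 1 direction in 5 libraries. Of the 15870 genes with at least 20 UMIs, 37.6% were higher in all 6 libraries and 25.4% lower, while the 8702 genes that reached 10 CPM in either class gave shares of 38% and 34.7%. The median log2 ratio was 2.15 over the 9 members and 0.15 over the genes with at least 20 UMIs. Agt and Agtr2, both in the count of 6 and in the median of 2.15, reached 20 UMIs only through fibroblast-like cells. They had 164 and 34 UMIs there against 1 and 2 in VSMC-like cells, so the filter favoured their direction. The medians set these 9 genes beside the rest and are no test. Where values of groups are said below not to overlap, the share of all genes of which that holds is not given.

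**Figure D1:**
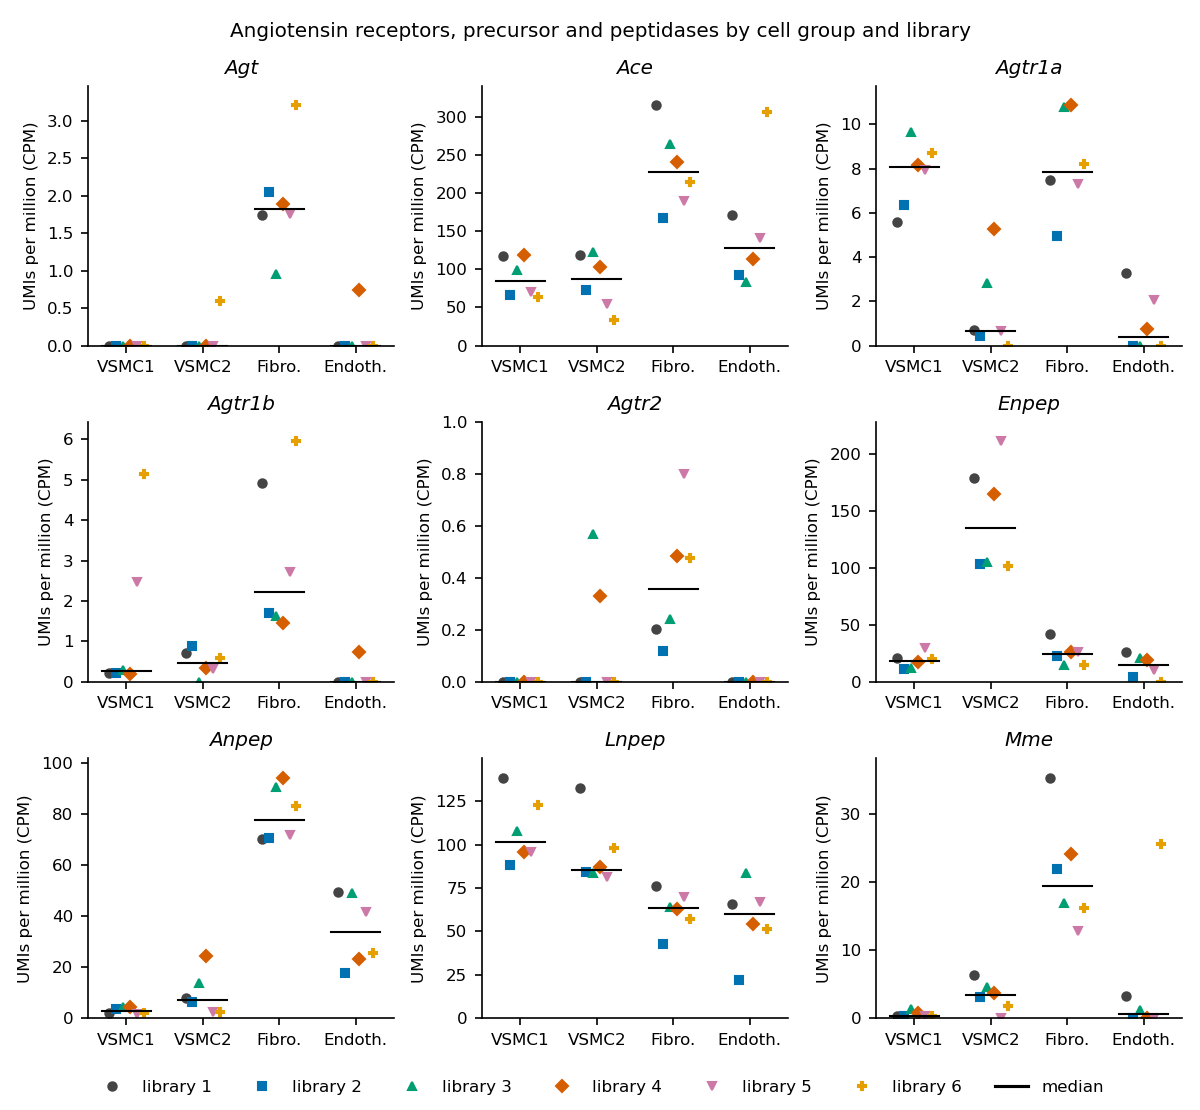
Level of each member as CPM (linear axis from 0) in VSMC1-like, VSMC2-like, fibroblast-like and endothelial-like cells, with 1 point per library and the median as a line. Enpep in VSMC2-like cells lay at 101.6 to 211 CPM, above every point of the other groups, whereas Agt, Anpep and Mme were highest in fibroblast-like cells, with 1 endothelial-like point for Mme that rests on 2 UMIs.

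Agt (chromosome 8, 124556534 to 124569706, minus strand) encodes the only precursor of the angiotensins. It gave 17, 35, 20, 43, 22 and 27 UMIs in the fibroblast-like cells of libraries 1 to 6, and a single UMI, in library 6, in all VSMC-like cells. Summed over libraries the level was 1.80 CPM against 0.012 CPM, a 148-fold ratio whose 95% counting interval ran from 26.1 to 5869. Only 0.977% of fibroblast-like cells (exact binomial 95% interval 0.817 to 1.16) held a UMI of Agt, against 0 of 442 leukocyte-like cells, for which the exact 95% upper limit is 0.831%. Agt was therefore a rare RNA of fibroblasts at this depth, with its highest level among clusters of at least 50 cells, 4.22 CPM, in the cluster led by Coch, Prss35 and Npy. Intervals of ratios and shares cover counting error only.

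Ace (chromosome 11, 105967945 to 105989964, plus strand), the enzyme that makes angiotensin II, was the most abundant member in fibroblast-like cells. It lay at 315, 167, 264, 240, 190 and 214 CPM there in libraries 1 to 6 and at 116, 67.9, 104, 114, 68.3 and 57.2 CPM in VSMC-like cells. Levels in the fibroblast-like cells of every library were above those in the VSMC-like cells of every library. The log2 ratio within a library had a median of 1.39 and ran from 1.07 to 1.91. Among fibroblast clusters the level summed over libraries went from 126 CPM in the cluster led by Has1, Spon2 and Cadm3 to 337 CPM in that led by Cilp2, Ucma and Spp1 and 362 CPM in that led by Coch, Prss35 and Npy. The last cluster varied, at 140 to 614 CPM over the 5 libraries with enough of its cells. Its median of 250 CPM was below that of the cluster led by Cilp2, Ucma and Spp1, 335 CPM (280 to 454). Endothelial-like cells, a classical site of this enzyme, had 389 UMIs or 119 CPM (95% Poisson interval 107 to 131), with 83.9 to 307 CPM over libraries of 10 to 256 such cells each. Lymphatic endothelium was part of this class. A clustering without integration gave 344 endothelial and 235 lymphatic endothelial cells.

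Anpep and Mme had the strongest fibroblast bias among the abundant members. Anpep (chromosome 7, 79821803 to 79861059, minus strand) lay at 70.2, 70.5, 90.6, 94.2, 71.9 and 83.1 CPM in fibroblast-like cells and at 2.55, 4.04, 5.67, 9.02, 1.77 and 1.91 CPM in VSMC-like cells, with a median log2 ratio of 4.44 (3.38 to 5.40). Mme (chromosome 3, 63241537 to 63386030, plus strand) lay at 35.3, 21.8, 16.8, 24.1, 12.7 and 16.2 CPM against 0.784, 0.988, 1.81, 1.38, 0.279 and 0.563 CPM, with a median log2 ratio of 4.56 (3.20 to 5.42). Neither gene overlapped between the classes in any pair of libraries. Within the fibroblast clusters they differed: Anpep was highest, 93.6 CPM, in the cluster led by Has1, Spon2 and Cadm3, where Mme was at 15.7 CPM, and Mme was highest, 34.5 CPM, in the cluster led by Ptn, Igfbp3 and Angpt4. Anpep was also seen in 15.0% of endothelial-like and 10.6% of leukocyte-like cells, against 37.1% of fibroblast-like and 2.58% of VSMC-like cells, with median depths of 4684, 5638, 6131 and 7204 UMIs per cell.

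Lnpep (chromosome 17, 17521410 to 17625050, minus strand), which also moves with the glucose transporter of fat and muscle, was the only member lower in fibroblast-like cells in all 6 libraries. Its level was 137, 86.5, 104, 92.9, 93.5 and 116 CPM in VSMC-like cells and 76.3, 42.6, 64.2, 62.9, 69.6 and 56.9 CPM in fibroblast-like cells, with a median log2 ratio of -0.77 (-1.03 to -0.43). It was the most evenly spread member, at 62.5 CPM in endothelial-like and 47.7 CPM in leukocyte-like cells.

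**Figure D2:**
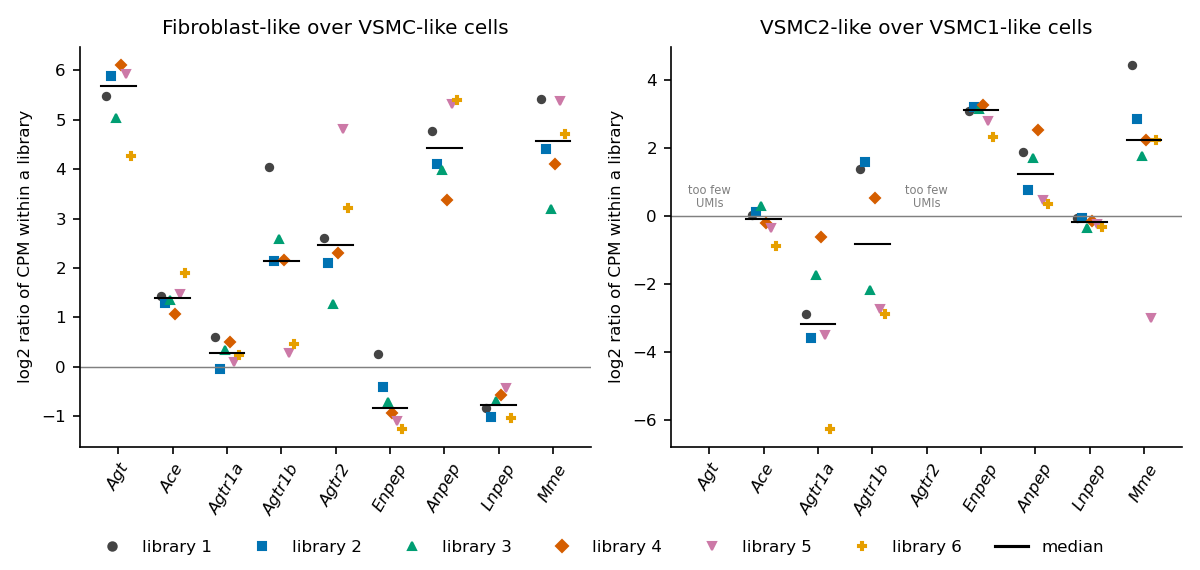
Log2 ratio of CPM within each library for the 9 members, fibroblast-like over VSMC-like cells on the left and VSMC2-like over VSMC1-like cells on the right, with 1 point per library, the median as a black line and 0 as a grey line. On the right Enpep is above 2 and Agtr1a below 0 in all 6 libraries, and Agt and Agtr2 had too few UMIs for a ratio.

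Enpep levels in whole classes overlapped. It lay at 34.9, 29.8, 24.96, 51.0, 55.5 and 35.1 CPM in VSMC-like cells and at 41.6, 22.4, 15.1, 26.6, 25.8 and 14.7 CPM in fibroblast-like cells, with a median log2 ratio of -0.83 (-1.25 to 0.25). Library 1 was the exception, and without it Enpep was lower in fibroblast-like cells in all of the others.

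The type 1 receptors were rare. Agtr1a (chromosome 13, 30336441 to 30382867, plus strand), the main type 1 receptor of rodent vessels, lay at 7.47, 4.93, 10.8, 10.9, 7.29 and 8.21 CPM in fibroblast-like cells and at 4.90, 5.12, 8.54, 7.64, 6.84 and 6.98 CPM in VSMC-like cells. It was higher in fibroblast-like cells in 5 of 6 libraries, with a median log2 ratio of 0.28 (-0.05 to 0.61), so the classes overlapped and no direction was called. Without library 2 it was higher in all of the others. A UMI was found in 5.18% of fibroblast-like and 4.93% of VSMC-like cells, against 0.452% of leukocyte-like cells (interval 0.0548 to 1.62). The cluster led by Hhip, Pex5l and F3 had the highest level of the fibroblast clusters, 12.4 CPM, and that led by Coch, Prss35 and Npy the lowest, 3.44 CPM.

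Agtr1b (chromosome 3, 20314473 to 20367177, minus strand), the second rodent type 1 receptor, held 17 of the 2139 50-base stretches found in the last 1000 bases of the Agtr1a transcripts, so few reads could fall on either gene alike. In fibroblast-like cells it had 48, 29, 34, 33, 34 and 50 UMIs in libraries 1 to 6. In VSMC-like cells it had 4, 4, 3 and 4 UMIs in libraries 1 to 4 and 48 and 38 UMIs in libraries 5 and 6, or 0.246 to 0.359 CPM against 2.23 and 4.28 CPM. The levels of libraries 5 and 6 did not overlap with those of the others, and these were the libraries with few GFP UMIs. A look at this split was not planned, and the share of all genes that separate these libraries in VSMC-like cells is not given. In fibroblast-like cells the UMIs did not separate these libraries. The part of the tracer or of the genotype in this split was not tested, since the libraries have no labels. Because of the same split the log2 ratio of fibroblast-like over VSMC-like cells went from 0.28 and 0.47 in libraries 5 and 6 to between 2.14 and 4.04 in the others. In VSMC-like cells without finer cluster 8, libraries 5 and 6 kept 40 and 21 UMIs and libraries 1 to 4 kept 3, 2, 3 and 2. Of the fibroblast clusters, that led by Hhip, Pex5l and F3 held 138 of the 228 fibroblast UMIs, at 4.91 CPM, against 0.423 CPM in the cluster led by Has1, Spon2 and Cadm3.

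**Figure D3:**
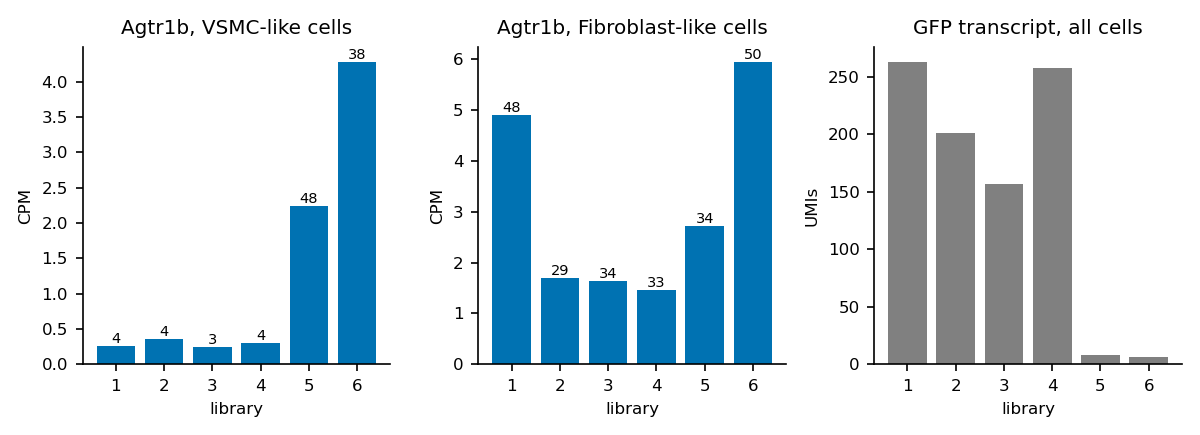
Agtr1b level (CPM, axis from 0, UMI counts above the bars) in the VSMC-like and fibroblast-like cells of each library, and UMIs of the GFP tracer transcript in all cells. Agtr1b in VSMC-like cells is at 2.23 and 4.28 CPM in libraries 5 and 6, which have 8 and 6 GFP UMIs, and at or below 0.359 CPM in the others.

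Agtr2 (chromosome X, 21484544 to 21489164, plus strand) was close to the limit of detection. It had 34 UMIs in 33 of 13411 fibroblast-like cells, spread as 2, 2, 5, 11, 10 and 4 over the libraries, and 2 UMIs in all VSMC-like cells. The summed ratio was 15.3-fold with a counting interval of 3.92 to 132, and was 28.8, 23.2 and 9.24 without library 3, 4 or 5. No endothelial-like cell of 568 held a UMI, for which the exact 95% upper limit is 0.647%.

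VSMC2-like cells were marked by Enpep and had little Agtr1a. Against VSMC1-like cells, 2 members were higher in all 6 libraries (Enpep and Anpep), 2 were lower (Agtr1a and Lnpep), 3 went both ways (Ace, Agtr1b and Mme), and Agt and Agtr2 had too few UMIs. Of the 13660 genes with at least 20 UMIs, 11.5% were higher and 15.6% lower in all 6 libraries, while the 7679 genes that reached 10 CPM gave shares of 11.9% and 21.4%. The median log2 ratio of the 7 members was -0.10, beside -0.05 over the genes with at least 20 UMIs. Without finer cluster 8 the only member higher in all 6 libraries was Enpep.

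Enpep (chromosome 3, 129269175 to 129332720, minus strand) lay at 179, 104, 105, 165, 211 and 101.6 CPM in the VSMC2-like cells of libraries 1 to 6 and at 21.1, 11.2, 11.7, 17.1, 30.1 and 20.3 CPM in VSMC1-like cells. Every VSMC2-like value was above every VSMC1-like value, and above every value of fibroblast-like cells, which ran from 14.7 to 41.6 CPM. The median log2 ratio was 3.12 (2.32 to 3.27), that is 8.67-fold. A UMI was found in 56.3% of VSMC2-like cells (53.8 to 58.7) and in 11.9% of VSMC1-like cells (11.2 to 12.6), and at a common depth of 3000 UMIs per cell in 34.9% and 6.03%, against 1.05% of leukocyte-like cells. VSMC2-like cells were 6.64% of all cells and held 35.6% of all Enpep UMIs. The study also reads Enpep as a transcript that falls along the aorta with distance from the root, so its direction here is not independent of the other 3 genes used for the name. Gata4 moved with it, at 28.5 to 44.1 CPM in VSMC2-like and 7.60 to 21.5 CPM in VSMC1-like cells, with a median log2 ratio of 1.61 (1.04 to 2.17).

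Among finer clusters of VSMC-like cells, Enpep was high in 2, cluster 5 (led by Cd93, Col8a1 and Actc1) at 154 CPM and cluster 7 (led by Olfr558, Acta1 and Nrip2) at 221 CPM, and at most 41.4 CPM in the other 9. Both had Gata4 at 41.0 and 38.2 CPM. Cluster 9, led by Cd74, H2-Aa and H2-Eb1, had Gata4 at 33.5 CPM but Enpep at 17.7 CPM and Agtr1a at 7.27 CPM, so high Gata4 was also found where Enpep was low. The Rgs5-high cells outside both subtypes had 3 Enpep UMIs in 236 cells. In the whole data the second-highest cluster for Enpep after the VSMC cluster led by Olfr558, Pgam2 and Acta1 (191 CPM) was the fibroblast cluster led by Ptn, Igfbp3 and Angpt4 (77.0 CPM). The fibroblast cluster led by Coch, Prss35 and Npy had Gata4 at 128 CPM and Enpep at 19.1 CPM.

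Agtr1a was lower in VSMC2-like cells. It had 74, 55, 98, 80, 145 and 61 UMIs in the VSMC1-like cells of libraries 1 to 6 and 1, 1, 5, 16, 2 and 0 UMIs in VSMC2-like cells, or 5.60 to 9.67 CPM against 0 to 5.28 CPM. The highest VSMC2-like value, in library 4, was below the lowest VSMC1-like value. Library 4 gave 16 of the 25 VSMC2-like UMIs. The summed ratio was 0.248 with a counting interval of 0.159 to 0.371, or 0.117 (0.0533 to 0.225) without library 4, and the log2 ratio was below 0 in all 6 libraries with a median of -3.19 (-6.26 to -0.62). Without finer cluster 8, 6 UMIs remained in 1331 VSMC2-like cells, or 0.592 CPM against 7.64 CPM in VSMC1-like cells. The share of VSMC2-like cells with a UMI was 1.45% (0.930 to 2.15), and that of VSMC1-like cells was 5.67% (5.19 to 6.19). Leukocyte-like cells were at 0.452% (0.0548 to 1.62), from 2 cells, with an interval that overlapped that of VSMC2-like cells. Without library 4 the VSMC2-like share was 0.724% (0.332 to 1.37). The median depths were 7099, 5638 and 7236 UMIs per cell for VSMC2-like, leukocyte-like and VSMC1-like cells.

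**Figure D4:**
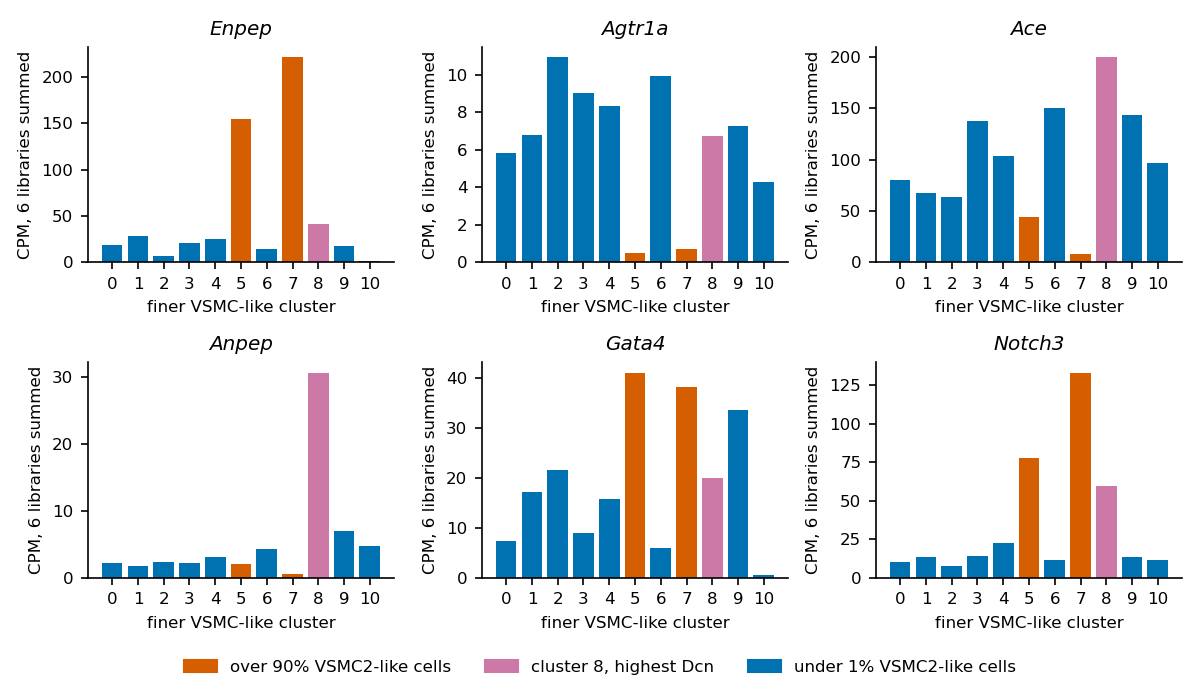
Level (CPM with the 6 libraries summed, linear axis from 0) of Enpep, Agtr1a, Ace, Anpep, Gata4 and Notch3 in the 11 finer clusters of VSMC-like cells, coloured by the share of VSMC2-like cells. Clusters 5 and 7 combine the highest Enpep with Agtr1a at 0.499 and 0.720 CPM, and cluster 8, with the highest Dcn, has the highest Ace and Anpep.

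The study follows Gata4 as a regulator of Agtr1a. By spatial transcriptomics it reports more Agtr1a in the aortic root than in the ascending aorta of LDS mice. By in situ hybridization it reports less Agtr1a in the LDS root after Gata4 was deleted in smooth muscle. The lower Agtr1a of VSMC2-like cells differs in direction from the regional result. Here, however, control and LDS cells were not told apart, and the subtypes are not dissected regions. The question here was whether both RNAs were met in the same smooth muscle cells. At 3000 UMIs per cell, 6 of 498 VSMC-like cells with a Gata4 UMI also held Agtr1a, 1.20% (0.443 to 2.60), against 188 of 9312 cells without Gata4, 2.02% (1.74 to 2.33). The difference was -0.81 percentage points, with overlapping intervals, negative in 4 libraries and positive in 2. Without thinning the shares were 3.83% and 5.07%, and the difference was negative in all 6 libraries. Within VSMC1-like cells the shares were 1.83% and 2.32%, and within VSMC2-like cells 0 of 170 and 8 of 1417 (0.565%), or 4 of 397 (1.01%) and 20 of 1261 (1.59%) without thinning, all with overlapping intervals. For Enpep the shares were 17.9% with Gata4 and 10.2% without over all VSMC-like cells, but 7.62% and 5.96% within VSMC1-like cells and 37.6% and 34.6% within VSMC2-like cells, with overlapping intervals in each subtype. In counts as sparse as these, pairs of RNAs in the same cell are a description, and a cell without a UMI may still have expressed the gene.

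For Ace and Anpep the comparison of subtypes turned on the cells with fibroblast transcripts. Ace lay at 118, 72.8, 122, 103, 54.99 and 34.1 CPM in the VSMC2-like cells of libraries 1 to 6 and at 117, 66.7, 99.1, 119, 70.6 and 63.2 CPM in VSMC1-like cells, with a median log2 ratio of -0.10 and 3 libraries on either side. Finer cluster 8 was at 200 CPM, and without it VSMC2-like cells had 17.1 to 45.0 CPM and the median log2 ratio was -1.63, lower in all 6 libraries. Clusters 5 and 7 had Ace at 43.9 and 7.68 CPM. Anpep was higher in VSMC2-like cells in all 6 libraries, with a median log2 ratio of 1.24 (0.34 to 2.52), yet of its 134 UMIs there only 14 lay outside cluster 8, and without that cluster the median turned to -1.12 with 5 libraries lower. Leaving out the cells with a UMI of Lum, Dpt, Pdgfra, Pecam1, Cdh5 or Ptprc gave -1.76 for Ace, lower in all 6 libraries, and -0.64 for Anpep. The fibroblast markers summed to 940 to 5173 CPM in VSMC2-like and 731 to 1530 CPM in VSMC1-like cells, all 7 being present in both.

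Of the remaining members, Lnpep differed little between the subtypes, and Mme and Agtr1b rested on few UMIs. Every library had lower Lnpep in VSMC2-like cells, but by a median log2 ratio of -0.19 (-0.36 to -0.06), with 81.3 to 132 CPM against 88.1 to 139 CPM, so the subtypes overlapped. Without finer cluster 8 the median was -0.18, with 1 library higher and 5 lower. Mme had 38 UMIs in 1658 VSMC2-like cells and 34 in 8481 VSMC1-like cells, or 2.88 against 0.507 CPM, a summed ratio of 5.69 with a counting interval of 3.49 to 9.32. Its median log2 ratio was 2.24, with 5 libraries higher and library 5 lower. Outside cluster 8 the counts were 12 and 24 UMIs. Agtr1b had 6 and 91 UMIs, 81 of the latter in libraries 5 and 6.

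**Figure D5:**
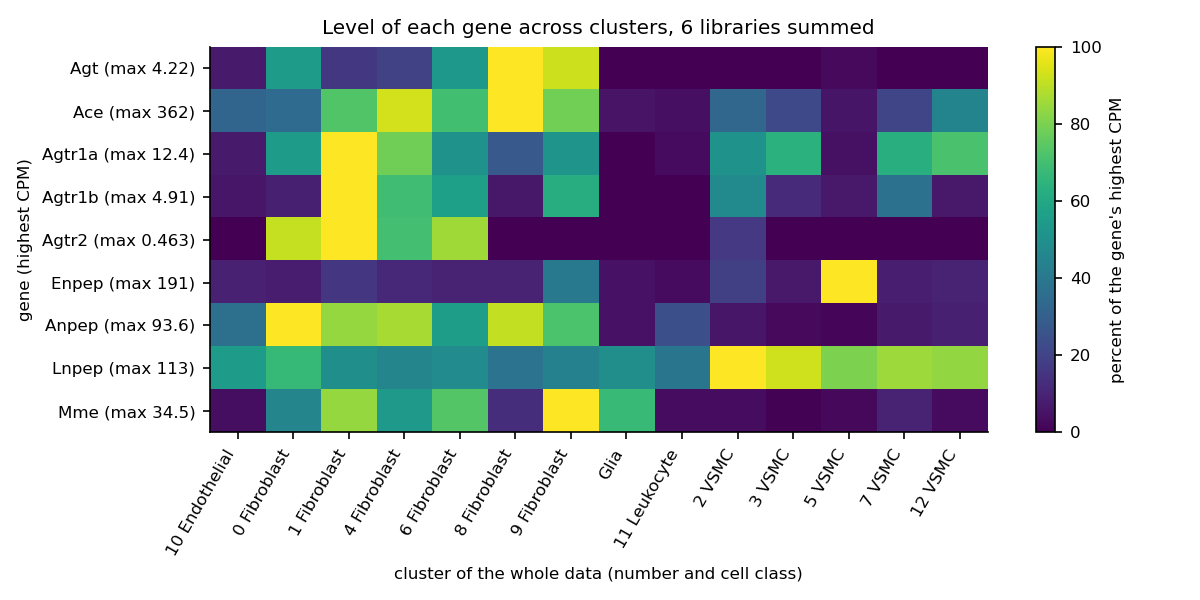
Level of each member in the named clusters of at least 50 cells, as the percentage of its highest CPM (given beside its name) with the 6 libraries summed. Enpep peaks in VSMC cluster 5, Lnpep in VSMC cluster 2, and Agtr1a and Agtr1b in fibroblast cluster 1. Agt and Ace peak in fibroblast cluster 8, Mme in fibroblast cluster 9 and Anpep in fibroblast cluster 0. For Ace the median over libraries was higher in fibroblast cluster 4 (335 CPM) than in fibroblast cluster 8 (250 CPM). Agtr2 had 13 UMIs in fibroblast cluster 1 (0.463 CPM) and 14 in fibroblast cluster 0 (0.423 CPM), too few to place its peak.

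Over the 15 clusters with at least 50 cells, the genes whose log2(CPM + 10) followed a member most closely were Tbx2 (Pearson r = 0.93), Tmem215 (0.91) and Mkx (0.89) for Enpep, Mfap4 (0.96), Aebp1 (0.93) and Aff2 (0.92) for Agtr1a, Slc16a9 (0.95), Tceal9 (0.94) and Crispld1 (0.93) for Ace, and Lamc3 (0.93), Cgref1 (0.92) and Lrig3 (0.87) for Agtr1b. For Mme they were Gfra2 (0.98), Sorcs2 (0.98) and Abca8b (0.96), for Anpep Irak1 (0.97), Prr5 (0.96) and Igf1 (0.95), and for Lnpep Clip1 (0.96), Anxa11 (0.92) and Prkar2a (0.92). These correlations are across clusters that share libraries and depth, and the clusters are no replicates. Among members, Ace and Agtr1a (0.75), Agt and Anpep (0.75) and Agtr1a and Agtr1b (0.73) had the highest values.

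The rest of the pathway was read from 26 genes of angiotensin processing and reception. In fibroblast-like cells 11 of them were higher than in smooth muscle in every library (37.6% of all genes tested) and 4 were lower (25.4%), 8 went both ways and 3 had under 20 UMIs, with a median log2 ratio of 0.02 over 23 genes. The prolylcarboxypeptidase Prcp (45.9 against 15.6 CPM as medians), the endothelin-converting enzyme Ece1 (114 against 35.0 CPM) and the prorenin receptor Atp6ap2 (195 against 105 CPM) were higher in fibroblast-like cells, and Gna11, a G protein subunit that type 1 receptors use, was lower (130 against 171 CPM). Gnaq, the sister subunit that these receptors also use, was higher (46.0 against 33.8 CPM). Between the VSMC subtypes, where 11.5% of all genes tested were higher and 15.6% lower, 1 gene was higher in VSMC2-like cells in all 6 libraries, Prcp (log2 ratio 0.56), and 3 were lower, the lysosomal proteases Ctsd (-0.64) and Ctsa (-0.43) and the oligopeptidase Thop1 (-0.22, under 20 CPM in both classes and named after its value was seen), with 17 going both ways and 5 under 20 UMIs. The renin gene Ren1, named after its values were seen, had 172 UMIs in 30 fibroblast-like cells, 121 of them in 5 cells, and 3 UMIs in VSMC-like cells. It is among the 11 higher genes and reached 20 UMIs only through fibroblast-like cells.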

How the data were processed

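The authors processed each mouse separately by 10x 3' v3 chemistry, aligned the reads to mm10 with Cell Ranger 6 (the matrix header names 4.0.0) and deposited 1 aggregated matrix of raw UMI counts. Whether aggregation equalized depth was not given in the sources used here. The deposited counts were filtered as in the study (1000 to 5000 genes, 1500 to 25000 UMIs, mitochondrial share under 20%). Cells were clustered in Seurat 5.3.0 (sctransform 0.4.2, R 4.3.3) with integration over libraries, at a resolution of 0.25, without the members and the pathway list. The markers were not left out there and also named the classes, so their sums are no separate check. The second split, of the VSMC-like cells, also left out the markers and the transcripts that the study names for its subclusters or regions. Glia and cardiomyocytes were set apart after the clusters were seen. Cells with high scrublet scores (scanpy 1.11.5) were kept, and removed only in an alternative.

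UMIs were summed per cell class and library. Ratios of CPM used a prior of 0.5 UMI and needed 20 UMIs. Shares have exact (Clopper-Pearson) 95% intervals, which cover counting error only, and were repeated with each cell thinned to 3000 UMIs. Median depth was 5572 to 9838 UMIs per cell over the libraries. The calculations were tested on simulated data. The members and lists were chosen with earlier results of these data known. All 9 members were named, pathway genes from 20 CPM in either class, and for each member with 200 UMIs the 3 genes most like it. Alternatives covered doublets, cells with transcripts of another class, the prior, the filters, the clustering and each library left out.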

Additional observations from a re-analysis of the deposited data

Results flagged for a closer look

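Over 45 sets of 6 library values, 2 had a library far from the others, and chance alone gives about 1 in 20. Lnpep in VSMC2-like cells was highest in library 1, at 132 CPM, with the others at 81.3 to 98.0 CPM. The log2 ratio of Mme between VSMC2-like and VSMC1-like cells was -3.00 in library 5, from 0 and 6 UMIs, with the others at 1.77 to 4.44.

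The cardiomyocyte-like cells entered no comparison, and they held 9 UMIs of Agtr1a in 3 of 17 cells, or 65.0 CPM (95% Poisson interval 29.7 to 123), all from libraries 3 and 4, with up to 5 UMIs in 1 cell.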

How the results depend on the processing

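Agtr1a was lower and Enpep higher in the VSMC2-like cells of every library under all 17 alternatives computed within libraries, with median log2 ratios of -3.51 to -1.73 and 2.99 to 3.46. Agt, Ace, Agtr1b, Anpep, Lnpep and Mme kept 1 direction between fibroblast-like and VSMC-like cells in all 14 such alternatives, and Agtr2 in 13. Anpep in VSMC2-like over VSMC1-like cells turned to -1.12 without finer cluster 8, -0.64 without cells holding transcripts of another class and -1.45 with log-normalized counts without integration, and under each of these, and without the 5% highest doublet scores, 1 member was higher instead of 2. The cause was not tested. With libraries left out in turn, 1 to 2 members were lower in fibroblast-like cells (2 without library 1), and 4 to 7 pathway genes had 1 direction between the VSMC subtypes (7 without library 2 or library 6). The alternatives without finer cluster 8, without shared barcodes and by finer clusters, and the summed ratios with libraries left out, were chosen after seeing the data. No resolution split the alternative clusterings into exactly 2 large subclusters, so they used the finer-cluster rule. Depth limits Agt, Agtr1b, Agtr2 and Mme in smooth muscle, which rest on few UMIs. Cell classes were compared within libraries throughout. No paired analysis was possible because, for the replicate numbers that the mice of different genotypes share, no label ties a library to a numbered mouse.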

Other observations

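Rare pathway genes were singled out after their values were seen. The Mas receptor gene Mas1 had 5 UMIs in VSMC2-like cells, 3 in library 2 and 2 in library 6, and none in VSMC1-like cells. Of these UMIs, 2 were in cells that also held a UMI of Higd1b or Vtn. The mast cell chymase Cma1 had 107 UMIs in VSMC-like cells, 50 of them in 1 cell. Enpep was at 164 CPM in the 113 VSMC2-like cells with a UMI of the pericyte transcripts Higd1b or Vtn and at 150 CPM in those without.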
